A study of Mus musculus with 24 samples.

Results

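The mouse mitochondrial genome is a circular molecule, inherited from the mother, that encodes mRNAs for core subunits of respiratory complexes I, III, IV and V, together with the rRNAs and tRNAs that translate them. Nearly all of it is transcribed as long precursors from both strands, which are cut at the tRNAs that stand between the mRNAs. Most mitochondrial mRNAs then receive short poly(A) tails, and all other respiratory chain subunits are encoded in the nucleus. The rows of the count tables whose chromosome is MT were followed here through intrahepatic cholangiocytes, the epithelial cells that line the bile ducts inside the liver. There were 35 such rows of 49315 gene rows in all: 13 mRNAs and 22 tRNAs. GENCODE release M21 lists 37 mitochondrial genes, and the 2 rRNA genes among them were not analysed here.

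The 24 libraries fell into 8 groups of 3, by their titles, with the same 4 groups in each sex. The dnTGFB secretin mice were transgenic for a dominant-negative form of TGF-β receptor II and were given secretin, a peptide hormone of the gut known for driving bicarbonate release from bile ducts. The dnTGFB mice carried the same receptor and were untreated; they model primary biliary cholangitis, and in the model of this name the transgene is known to be driven by the CD4 promoter in T cells, which the labels do not state. WT secretin mice were wild-type and received the hormone, and WT mice were wild-type and untreated. The daily secretin dose was 4 µg per kg, delivered by osmotic minipumps over 8 weeks, the first placed at 32 weeks of age and the next 1 month later. Treated mice were therefore killed at 40 weeks and WT mice at 32 weeks, while no age is stated for the untreated dnTGFB mice. For every group the cells of 6 to 8 mice were isolated on antibody-coated magnetic beads and combined into 1 pool. The poly(A) RNA of that pool is described as sequenced 3 times. Every p-value below therefore measures the spread between libraries of a group, not between mice. In some groups the libraries differed in ways given below, and whether they came from 1 pool was not tested.

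Several libraries stood apart from their group or against their label. Total counts ranged from 1429218 in male dnTGFB library 3 to 104003184 in female WT secretin library 2. In 12 libraries, WT secretin and untreated dnTGFB, the label for genotype contradicts the title, and titles were followed. The libraries labelled female WT secretin 2 and 3 and female dnTGFB 1 and 2 held the Y-linked gene Ddx3y at 64.3, 59.1, 46.8 and 58.3 CPM (counts per 1000000 counts of the library), against 1.36 to 6.02 CPM in the other 8 female libraries. In the same 4 libraries 10 heart muscle markers summed to 64992 to 74349 CPM of the counts outside the mitochondrial rows, and 8 cholangiocyte markers to 117.6 to 1356 CPM. In male dnTGFB library 3 the heart markers reached 17833 CPM and 8 neuronal markers 6394 CPM. Xist, which is made from the inactive X, stood at 34.0 to 42.4 CPM in the male WT secretin libraries, against 0.206 to 5.74 CPM in the other male libraries. Female WT library 2 and female dnTGFB secretin library 1 resembled each other across groups. Their sums of 10 hepatocyte markers were 28182 and 27162 CPM of the counts outside the mitochondrial rows. Female WT secretin library 1 and female dnTGFB secretin library 3 were a similar pair, with sums of 5939 and 5265 CPM. Whether the libraries of a pair share a source was not tested. The Tgfbr2 row cannot separate the transgene from the endogenous gene and checks no label.

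Most of the mitochondrial reads fell on 7 mRNAs. Per kilobase of gene length, mt-Co1, the catalytic subunit of complex IV (cytochrome c oxidase), had a median level of 53864 CPM per kb over the 24 libraries. It was followed by mt-Cytb, the mitochondrial subunit of complex III, at 31249 CPM per kb, and by the complex I subunit genes mt-Nd1 at 22307 and mt-Nd2 at 16059 CPM per kb. The complex I subunit genes mt-Nd4, mt-Nd6 and mt-Nd5 followed at 9728, 7573 and 5670 CPM per kb. The other 6 mRNAs lay far below these: the complex I subunit gene mt-Nd3 had a median of 45.9 CPM per kb, the complex IV subunit genes mt-Co2 and mt-Co3 had 18.3 and 16.3, the complex V subunit genes mt-Atp6 and mt-Atp8 had 15.1 and 10.02, and mt-Nd4l of complex I had 9.39 CPM per kb. Together these 6 took 0.0147% to 0.0636% of the mitochondrial counts of a library. The lowest median raw count among the 7 abundant mRNAs was 70844 and the highest among the other 6 was 251, and the ranges over libraries did not overlap on the scale per length.

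The 6 rows of low count are the 6 mRNAs that lie wholly inside a stretch of mitochondrial sequence with a copy in the nuclear genome. That stretch runs from base 6381 to base 11042 of MT (GRCm38), and its copy is annotated as 7 unprocessed pseudogenes on the minus strand of chromosome 1, between 24611535 and 24616197. Gm28661, Gm10925, Gm28437 and Gm10222 were identical to mt-Co2, mt-Atp6, mt-Co3 and mt-Nd4l over 681, 678, 783 and 294 bases. Gm28439 was identical to mt-Nd4 over its first 876 of 1378 bases, and Gm29216 matched the last 492 bases of mt-Co1 at 98.8%. Of all windows of 50 bases in a row, 100% were also found in a nuclear transcript for mt-Co2, 99.5% for mt-Atp6, 99.9% for mt-Co3, 98.8% for mt-Nd4l, 62.2% for mt-Nd4 and 51.1% for mt-Co1, but none for mt-Nd1, mt-Nd6 or mt-Cytb. For mt-Nd3 it was 293 of 299 windows. For mt-Nd2 and mt-Nd5 it was 8.19% and 7.61%, in transcripts other than the 7 pseudogenes, and some windows of mt-Co1 also lay in such other transcripts. mt-Atp8 had none either, since most of its bases fall in the 233 bases between Gm10925 and Gm28661 where no gene is annotated. No source used here states how reads matching more than 1 place were counted. The levels of the 6 mRNAs inside the stretch therefore cannot be compared with those of the other mRNAs. The same holds in part for mt-Co1 and mt-Nd4, and to a smaller extent for mt-Nd2 and mt-Nd5.

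**Figure D1:**
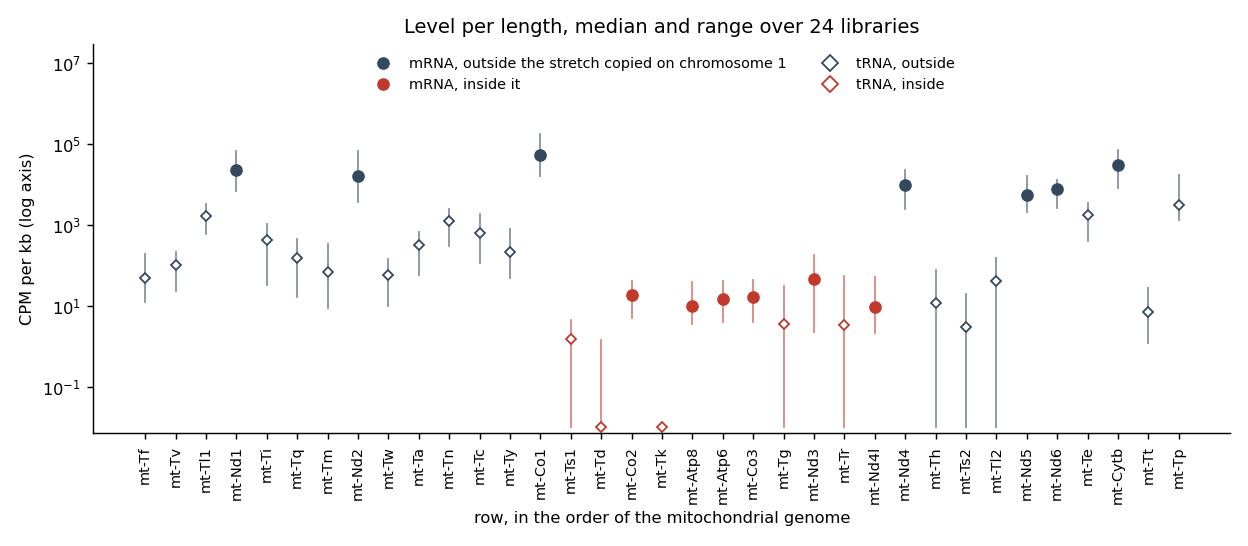
Level of each of the 35 mitochondrial rows per length (CPM per kb, log axis) in the order of the mitochondrial genome. Points are medians and lines are ranges over 24 libraries, with values of 0 drawn at the bottom of the axis; the 6 mRNAs inside the stretch copied on chromosome 1 have medians of 9.39 to 45.9 CPM per kb, and the 7 others 5670 to 53864.

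The tRNA rows together took 0.329% to 0.497% of the mitochondrial counts. Mature tRNAs carry no poly(A) tail, and these libraries were poly(A)-selected, so whether the reads came from mature tRNAs or from longer precursors was not measured. mt-Tp, the tRNA for proline, was the most abundant, with a median of 0.171% of the mitochondrial counts. The tRNAs for leucine (mt-Tl1), glutamate (mt-Te) and asparagine (mt-Tn) followed at 0.0679%, 0.0562% and 0.0419%. At the other end, mt-Tk, the tRNA for lysine, had no count in any library, and mt-Td, for aspartate, had at most 2. Both lie inside the stretch copied on chromosome 1, as do mt-Ts1, mt-Tg and mt-Tr, and the highest count of any of these 5 tRNAs in a library was 158. The 2 most abundant tRNAs, each from its annotated start to its end, read as follows in the GENCODE transcripts.
mt-Tp: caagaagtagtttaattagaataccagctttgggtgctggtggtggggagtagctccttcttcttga
mt-Tl1: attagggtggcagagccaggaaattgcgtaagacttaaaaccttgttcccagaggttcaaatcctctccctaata
mt-Tp lies on the minus strand at MT:15356-15422 and mt-Tl1 on the plus strand at MT:2676-2750.

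mt-Nd3 and its copy differ at a single base in 345 aligned bases, and the counts on the pair divided the libraries. Counted from the first base of the gene, the difference is T3C, with the mitochondrial base first; it lies at base 9461 of MT. The first 60 bases of both carry that base in capitals, because it is the only difference between the aligned sequences.
mt-Nd3: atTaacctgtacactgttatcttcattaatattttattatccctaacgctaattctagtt
Gm28438: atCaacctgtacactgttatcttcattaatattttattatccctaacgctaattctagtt
The mitochondrial sequence is MT:9459-9518 on the plus strand and that of the copy is chr1:24613060-24613119 on the minus strand (GRCm38). Mitochondrial genomes of laboratory mouse strains are known to differ at single bases; the base that the reads carried was not measured here.

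Of the counts on mt-Nd3 and Gm28438 together, mt-Nd3 took 70.6% to 96.6% in 13 libraries and 1.89% to 9.58% in 11, with no library between. In males it took 9.39%, 5.50% and 9.58% in dnTGFB secretin, 94.3%, 94.4% and 86.8% in dnTGFB, 90.9%, 94.2% and 90.9% in WT secretin, and 70.6%, 5.91% and 3.72% in WT. In females it took 5.19%, 6.55% and 74.9% in dnTGFB secretin, 92.8%, 94.9% and 4.16% in dnTGFB, 85.3%, 96.1% and 96.6% in WT secretin, and 1.89%, 4.05% and 2.55% in WT. The exact binomial 95% interval, which covers counting error only, was widest for male dnTGFB library 3, from 71.9% to 95.6% of 38 counts. Libraries of 1 group thus lay on both sides of the gap in 3 of the 8 groups: male WT, female dnTGFB and female dnTGFB secretin.

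Where few counts lay on mt-Nd3, more lay on Gm28438. Per 100000 mitochondrial counts, Gm28438 had 24.6, 24.8 and 21.1 in male dnTGFB secretin, 0.501, 0.516 and 3.06 in male dnTGFB, 1.39, 0.947 and 1.59 in male WT secretin, and 2.71, 30.2 and 30.2 in male WT. Neighbouring rows varied alongside: mt-Tg, the tRNA for glycine just before mt-Nd3, had 0, 0 and 2 counts in male dnTGFB secretin, against 32, 36 and 1 in male dnTGFB. mt-Tr, the tRNA for arginine just after it, had 1, 1 and 0 counts in male dnTGFB secretin, against 55, 24 and 0 in male dnTGFB.

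**Figure D2:**
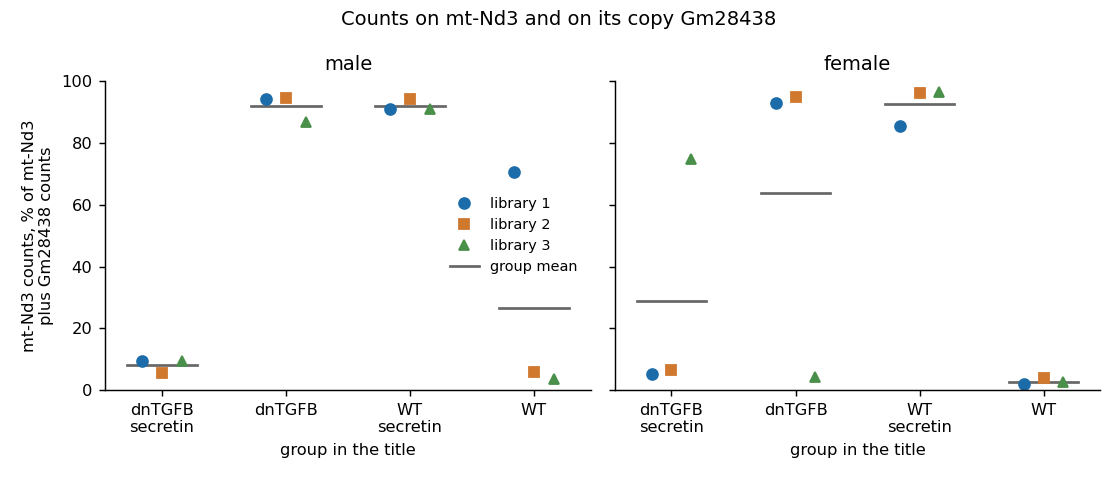
Counts on mt-Nd3 as a percentage of those on mt-Nd3 and its chromosome 1 copy Gm28438 together, for the 3 libraries of each group; grey lines are group means. No library lies between 9.58% and 70.6%, and the libraries of male WT, female dnTGFB and female dnTGFB secretin lie on both sides of this gap.

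The share of all counts that fell on mitochondrial rows ranged from 5.31% to 55.1%. In males it was 5.50%, 5.31% and 5.66% in dnTGFB secretin, 55.1%, 55.0% and 11.4% in dnTGFB, 19.5%, 19.4% and 19.4% in WT secretin, and 42.8%, 9.73% and 9.76% in WT. Male dnTGFB library 3 thus lay far below, and male WT library 1 far above, the other libraries of their own groups. In females the share was 31.0%, 11.4% and 8.06% in dnTGFB secretin, 17.4%, 20.1% and 14.4% in dnTGFB, 9.03%, 23.2% and 19.5% in WT secretin, and 22.5%, 31.3% and 23.2% in WT. In bulk RNA, a different mixture of cells and a different amount of mitochondrial RNA per cell cannot be told apart.

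Secretin-treated dnTGFB males had the lowest mitochondrial share of any group, and it did not overlap with that of untreated dnTGFB males. The mean was 5.49% ± 0.179 in dnTGFB secretin males and 40.5% ± 25.2 in dnTGFB males (SD, n = 3 each), a difference of -35.0 percentage points (exact two-sided permutation test, p = 0.1, the smallest that 3 against 3 allows). Without male dnTGFB library 3 the difference was -49.6 points. In dnTGFB males the share was higher than in WT males by 19.8 points, from 40.5% ± 25.2 and 20.7% ± 19.1, but the libraries overlapped (exact two-sided permutation p = 0.2). This difference was 34.3 points without dnTGFB library 3, 30.8 without WT library 1, and 12.49 or 12.51 without dnTGFB library 1 or 2. In WT secretin males it was 19.4% ± 0.0432, against 20.7% ± 19.1 in WT males, and lay between the high WT library and the low pair (difference -1.34 points, exact permutation p = 1). Leaving out male WT library 1 turned this difference to 9.67 points, with all 3 WT secretin libraries above both remaining WT libraries.

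In females the share was lower in dnTGFB than in WT without overlap, at 17.3% ± 2.89 and 25.7% ± 4.87 (SD, n = 3 each; difference -8.39 points, exact two-sided permutation p = 0.1). Of the dnTGFB libraries, 2 were the ones with heart transcripts and Y-linked counts; the remaining one, at 14.4%, was also below every WT library. Without WT library 2 the difference was -5.57 points. The WT secretin libraries averaged 17.3% ± 7.37, with 1 library above the lowest WT value (difference -8.41 points, exact permutation p = 0.3). It was -4.30 points without WT secretin library 1, -5.60 without WT library 2 and -11.4 without WT secretin library 2. The dnTGFB secretin libraries averaged 16.8% ± 12.4, against 17.3% ± 2.89 in dnTGFB, and reached both above and below them (difference -0.453 points, exact permutation p = 1). Its sign depended on single libraries: it was 3.93, 2.25 and 0.964 points without dnTGFB secretin library 3, dnTGFB secretin library 2 and dnTGFB library 2, and -7.55 and -1.92 without dnTGFB secretin library 1 and dnTGFB library 3. Over the 6 comparisons of this share, the lowest Benjamini-Hochberg adjusted value of these permutation p-values was 0.3.

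Hepatocyte transcripts varied with the mitochondrial share within several groups, but not across all libraries. A list of 10 hepatocyte markers, among them albumin (Alb), summed to 4159, 4142 and 4145 CPM of the counts outside the mitochondrial rows in male dnTGFB secretin, 27090, 25752 and 3740 in male dnTGFB, 17932, 18118 and 18708 in male WT secretin, and 15749, 3142 and 3078 in male WT. The low and high libraries within male dnTGFB and male WT were thus the same for both measures. The female sums were 27162, 8272 and 5265 CPM in dnTGFB secretin, 1217, 1627 and 12801 in dnTGFB, 5939, 410.9 and 827.6 in WT secretin, and 19406, 28182 and 18350 in WT. The 4 female libraries with heart transcripts departed from this, with hepatocyte sums of at most 1627 CPM beside mitochondrial shares of 17.4% to 23.2%. Groups also differed: male WT library 1, at a share of 42.8%, had a lower hepatocyte sum than the male WT secretin libraries, at 19.4% to 19.5%. Male dnTGFB secretin had the lowest shares but higher hepatocyte sums than male WT libraries 2 and 3. Cholangiocyte markers summed in males to 5990, 5885 and 5936 CPM in dnTGFB secretin, 1022, 1023 and 752.9 in dnTGFB, 3132, 3178 and 3139 in WT secretin, and 2235, 3638 and 3621 in WT. They were highest in the group with the lowest mitochondrial share, but within dnTGFB library 3 was low in both. The part of either cell type in the mitochondrial share was not tested.

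**Figure D3:**
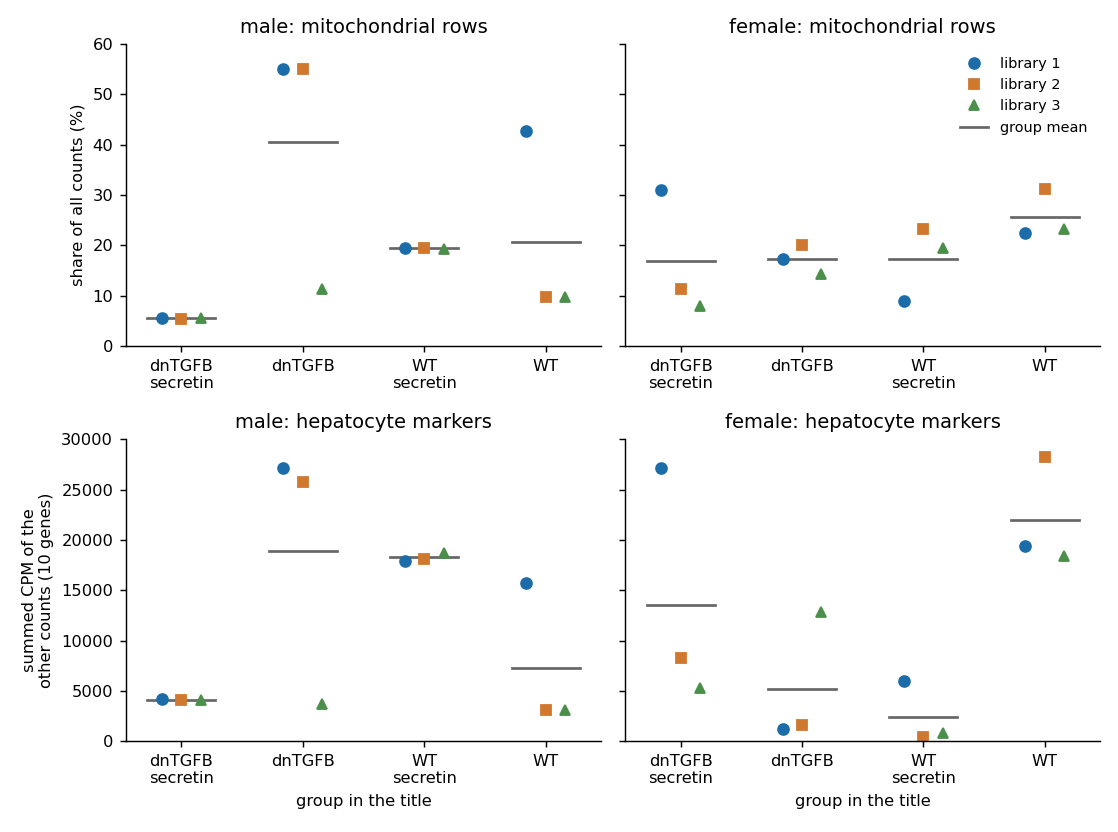
Mitochondrial rows as a percentage of all counts (top) and summed CPM of 10 hepatocyte markers among the other counts (bottom), per library in each group; grey lines are group means. In male dnTGFB library 3 and male WT libraries 2 and 3 both values are low (11.4%, 9.73% and 9.76%; 3740, 3142 and 3078 CPM), and in the other libraries of those groups both are high.

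Secretin in dnTGFB males went with lower counts of nearly every mitochondrial row. Of the 31 rows that passed the filter on low counts, 29 were lower in dnTGFB secretin than in dnTGFB (edgeR quasi-likelihood test, Benjamini-Hochberg adjusted p under 0.05 over 18777 genes), where 12.4% of all genes tested were lower and 22.6% were called in either direction. The median log2 fold change was -3.86 over the 31 rows and -3.90 over the 13 mRNAs, all of which were called, against -0.05 over all genes. Leaving out any 1 dnTGFB library kept all 29 calls, whereas leaving out 1 dnTGFB secretin library kept 7 or 8 of them; no direction changed.

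The mRNA of the catalytic complex IV subunit, mt-Co1, had 25341, 24484 and 26109 CPM in dnTGFB secretin males and 263372, 268214 and 48289 CPM in dnTGFB males. All 3 treated libraries were below the lowest untreated one, which was library 3 (log2 fold change -4.00 ± 1.04 SE, edgeR adjusted p = 0.0222). mt-Cytb of complex III had 9488, 9181 and 9707 CPM in dnTGFB secretin and 81073, 81417 and 20710 CPM in dnTGFB, with a log2 fold change of -3.73 ± 0.89 (edgeR adjusted p = 0.0179). Complex I subunit genes fell by different amounts. mt-Nd2 had 3986, 3791 and 4117 CPM in dnTGFB secretin, against 69518, 66891 and 11071 CPM in dnTGFB, and fell most among the abundant mRNAs, by 4.71 ± 1.10 on the log2 scale (edgeR adjusted p = 0.0169). mt-Nd6, the only mitochondrial mRNA read from the opposite strand, had 1377, 1341 and 1426 CPM in dnTGFB secretin, against 6801, 6810 and 3054 CPM in dnTGFB, and had the smallest change of the mRNAs, a log2 fold change of -2.995 ± 0.785 (edgeR adjusted p = 0.0231).

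mt-Nd1, mt-Nd4 and mt-Nd5 lay between these, at log2 fold changes of -3.86, -3.75 and -3.53. Among the 6 mRNAs inside the copied stretch, mt-Co2, mt-Co3, mt-Atp8 and mt-Atp6 had log2 fold changes of -3.75, -4.01, -3.90 and -3.91, close to those of the abundant mRNAs, and mt-Nd4l had -4.54. The mt-Nd3 row had 1.40, 0.766 and 1.27 CPM in dnTGFB secretin and 45.2, 47.5 and 23.1 CPM in dnTGFB (log2 fold change -6.07 ± 1.30, edgeR adjusted p = 0.0119). Its copy Gm28438 rose in the same comparison, with a log2 fold change of 1.19 ± 0.27 (edgeR adjusted p = 0.0149), while the other 6 pseudogenes fell, with log2 fold changes from -2.24 for Gm10222 to -3.86 for Gm29216. Raw counts were 34, 17 and 32 on mt-Nd3 beside 328, 292 and 302 on Gm28438 in dnTGFB secretin. In dnTGFB they were 688, 903 and 33 beside 42, 54 and 5. The groups thus divided their counts on this pair differently, so the fall of mt-Nd3 cannot be ranked against those of the other mRNAs. Counts on the pair together were not tested. Of the tRNAs, mt-Tg and mt-Tr beside mt-Nd3 had the largest falls, 6.65 and 6.83 on the log2 scale. Their raw counts in dnTGFB secretin were 0, 0 and 2 for mt-Tg and 1, 1 and 0 for mt-Tr. With so few counts these falls cannot be ranked either. The 2 rows tested but not called were the tRNAs mt-Th and mt-Tt, with log2 fold changes of -2.70 and -2.11 (edgeR adjusted p = 0.0528 and 0.117).

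Scaling mattered for the size of the fall. TMM scaling multiplied the totals of dnTGFB libraries 1 and 2 by 0.570 and 0.569 and those of the dnTGFB secretin libraries by 1.24 to 1.25. With library totals alone, the same 29 rows were lower, where 4.46% of all genes were, at a median log2 fold change of -2.85 beside a median of 0.75 over all genes. On those totals, without scaling, 26 of the 35 rows were lower in every dnTGFB secretin library than in any dnTGFB library, against 3.25% of all genes of at least 1 CPM.

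**Figure D4:**
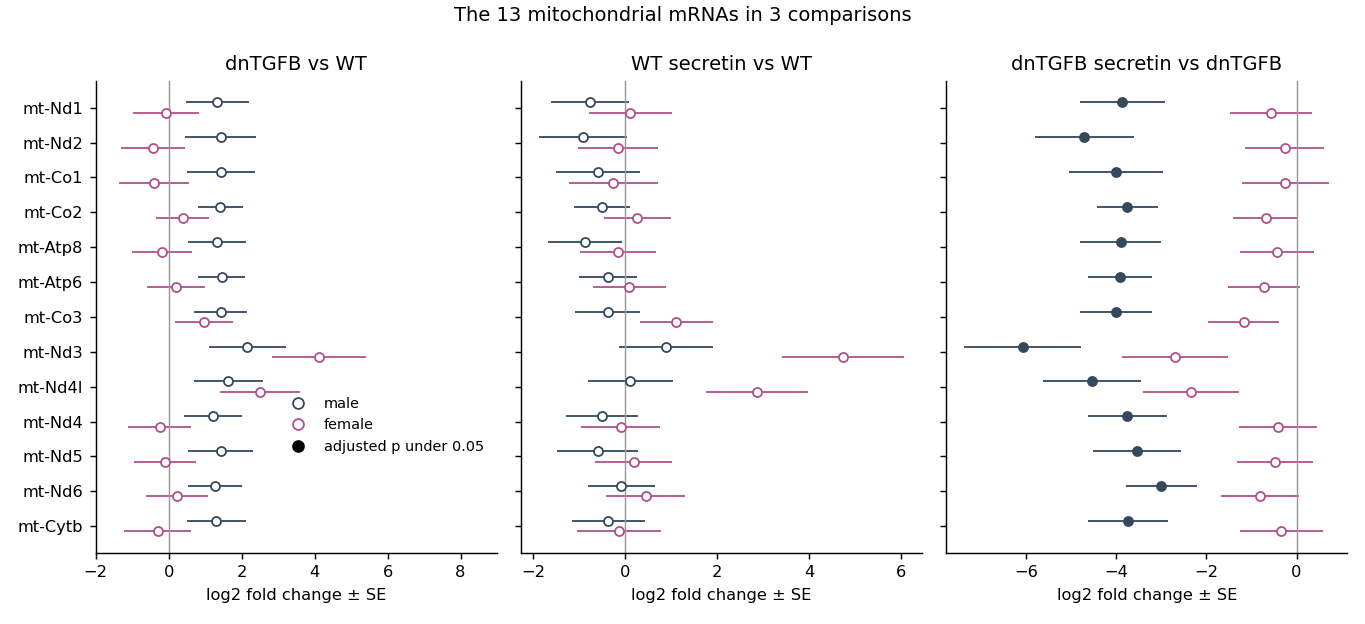
Log2 fold change (± SE, edgeR) of the 13 mitochondrial mRNAs in 3 comparisons, in males and in females; filled points passed an adjusted p of 0.05. In males, dnTGFB secretin against dnTGFB, all 13 lie between -6.07 and -2.995, and no other comparison has a filled point.

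Of the nuclear genes of the respiratory chain, 1 of 74 tested was called in dnTGFB secretin against dnTGFB males, where 22.6% of all genes were. In dnTGFB secretin against dnTGFB males, none of the 36 nuclear complex I genes was higher and 1 was lower, Ndufs8, and none of the 4 genes of complex II, 9 of complex III, 10 of complex IV and 15 tested of complex V was called. Ndufs8 had 33.8, 33.7 and 35.97 TMM-scaled CPM in dnTGFB secretin, against 50.2, 43.9 and 137.9 in dnTGFB, the highest value being that of library 3 (log2 fold change -1.13 ± 0.34, edgeR adjusted p = 0.0378). The medians of these lists were -0.60 for complex I, -0.47 for II, -0.64 for III, -0.34 for IV and -0.69 for V, on the log2 scale. The 74 nuclear subunits summed to 10392, 10790 and 10464 CPM of the counts outside the mitochondrial rows in dnTGFB secretin, and to 8931, 8619 and 33164 CPM in dnTGFB. The heart-rich library 3 thus lay alone above the others, while libraries 1 and 2, with the highest mitochondrial shares, lay below the treated libraries.

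Genes that keep and express the mitochondrial genome were read against the 10.1% of all genes called higher and the 12.4% called lower in this comparison; counts of 1 to 3 in lists of this size are near or under those shares. Of 15 genes of mitochondrial DNA replication and transcription, 2 were higher in dnTGFB secretin males than in dnTGFB males: Ssbp1, which binds single-stranded mitochondrial DNA, and Mterf3, a member of the mitochondrial transcription termination factor family. Ssbp1 had 30.8, 30.7 and 32.6 TMM-scaled CPM in dnTGFB secretin and 22.9, 20.2 and 22.3 in dnTGFB (log2 fold change 0.53 ± 0.16, edgeR adjusted p = 0.0374). Mterf3 had 23.9, 19.7 and 23.6 in dnTGFB secretin and 12.3, 16.1 and 14.7 in dnTGFB (log2 fold change 0.64 ± 0.18, edgeR adjusted p = 0.0281). The packaging and transcription factor Tfam and the mitochondrial RNA polymerase Polrmt did not pass, with log2 fold changes of -0.37 ± 0.23 and -0.11 ± 0.23 (edgeR adjusted p = 0.261 and 0.753).

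Of 18 genes of mitochondrial RNA processing and stability, 1 was lower, Hsd17b10, a subunit of mitochondrial RNase P (log2 fold change -0.46 ± 0.13, edgeR adjusted p = 0.0314). Lrpprc, which stabilises mitochondrial mRNAs, had a log2 fold change of -0.58 ± 0.28 (edgeR adjusted p = 0.153). Among 47 proteins of the large mitochondrial ribosomal subunit 3 were higher and 1 was lower, and among 29 of the small subunit 2 were lower, against the same 10.1% and 12.4% of all genes. Mrpl52 of the large subunit had 45.3, 49.7 and 47.1 TMM-scaled CPM in dnTGFB secretin and 32.6, 20.3 and 28.2 in dnTGFB, and Mrpl18, also of the large subunit, had 28.9, 30.3 and 28.2 in dnTGFB secretin and 57.1, 52.1 and 72.8 in dnTGFB. Of 8 regulators of mitochondrial biogenesis, 1 was higher, the transcription factor gene Nrf1 (log2 fold change 0.66 ± 0.20, edgeR adjusted p = 0.0379). The coactivator gene Ppargc1a had 5.597, 6.54 and 5.84 TMM-scaled CPM in dnTGFB secretin and 8.19, 8.05 and 34.6 in dnTGFB, the last being the heart-rich library (log2 fold change -1.37 ± 0.49, edgeR adjusted p = 0.0652).

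Several marker lists of cell types held more calls than the 10.1% of all genes called higher or the 12.4% called lower in the same comparison. All 8 cholangiocyte markers were higher in dnTGFB secretin males than in dnTGFB males, with a median log2 fold change of 2.53, and all 7 Kupffer cell and macrophage markers were higher, with a median of 1.77. Of 10 hepatocyte markers 4 were lower (median -2.06), and all 8 neuronal markers were lower (median -2.75). The neuronal sum was 881.3 and 820.4 CPM of the counts outside the mitochondrial rows in dnTGFB libraries 1 and 2, against 6394 in library 3. No member was called of 10 heart muscle markers (median -2.81), 5 erythroid (median -2.18), 7 neutrophil (median -1.87) or 5 endothelial markers (median 0.60), while 1 of 6 T cell markers was lower, and of 5 B cell markers 1 was higher and 2 were lower. Their part in the fall of the mitochondrial rows was not tested.

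In dnTGFB against WT males, no mitochondrial row of 31 was called by edgeR, where 17.0% of all genes were, although 7 rows had an unadjusted p under 0.05. The share of all genes at that unadjusted p was not counted. DESeq2 called 1 row and gave no adjusted p for 9 of the 31, while it called 2561 genes higher and 2425 lower of 18777. The median log2 fold change was 1.42 over the rows, and mt-Co1 had 263372, 268214 and 48289 CPM in dnTGFB, against 199615, 43707 and 44122 CPM in WT (log2 fold change 1.44 ± 0.94, edgeR adjusted p = 0.297). For mt-Co1 WT library 1 lay above dnTGFB library 3 and below the other dnTGFB libraries, and it was the only WT library above any dnTGFB library. Without WT library 1, 28 rows were higher in dnTGFB, where 10.9% of all genes were. Without dnTGFB library 3 as well, 29 were higher with a median log2 fold change of 3.47, where 22.3% of all genes were.

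In WT secretin against WT males, no row was called by edgeR and none had an unadjusted p under 0.05, where 6.22% of all genes were called. DESeq2 also called none, but it gave no adjusted p for 9 of the 31 rows. mt-Co1 had 90210, 90682 and 89238 CPM in WT secretin and 199615, 43707 and 44122 CPM in WT (log2 fold change -0.60 ± 0.92, edgeR adjusted p = 0.780). Gm28438 fell in this comparison, with a log2 fold change of -3.34 ± 0.27 (edgeR adjusted p = 0.000194), while mt-Nd3 had 0.88 ± 1.02 (edgeR adjusted p = 0.689). Without WT library 1, 3 mitochondrial rows were higher, mt-Nd3, mt-Tg and mt-Tw, where 3.43% of all genes were higher. Without dnTGFB library 3 as well, which enters the shared estimate of the spread, 27 rows were higher, where 19.9% of all genes were.

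In females no row of 32 was called by edgeR in any comparison, and no gene of 19882 was, so the share of all genes called was 0% in each. Unadjusted p-values were under 0.05 for 6 rows in dnTGFB against WT, 6 in WT secretin against WT and 2 in dnTGFB secretin against dnTGFB. The share of all genes at that unadjusted p was not counted. In the same order DESeq2 called 1, 3 and 0 rows. Of all 19882 genes it called 599 higher and 135 lower, 1683 higher and 905 lower, and 105 higher and 306 lower. On CPM of library totals, 4 of 13 mRNAs, mt-Co1, mt-Cytb, mt-Nd2 and mt-Nd4, were lower in every dnTGFB library than in any WT library, where 8.67% of all genes of at least 1 CPM were. mt-Co1 had 144063, 52831 and 37617 CPM in dnTGFB secretin, 73769, 85520 and 67542 in dnTGFB, 42385, 98372 and 80921 in WT secretin, and 105733, 145883 and 107500 in WT. All dnTGFB and all WT secretin libraries thus lay below the WT libraries for mt-Co1, while dnTGFB secretin and dnTGFB overlapped. mt-Nd3 had 39.4, 46.4 and 1.61 CPM in dnTGFB, 18.0, 62.3 and 47.6 in WT secretin, and 1.17, 3.86 and 1.72 in WT. The values of 39.4, 46.4, 62.3 and 47.6 CPM belonged to the 4 libraries with heart transcripts and Y-linked counts. The remaining dnTGFB library lay within the WT range, and the remaining WT secretin library, at 18.0 CPM, lay above it. The log2 fold change of mt-Nd3 was 4.13 ± 1.29 in dnTGFB against WT (edgeR adjusted p = 0.242, DESeq2 adjusted p = 0.018) and 4.74 ± 1.32 in WT secretin against WT (edgeR adjusted p = 0.14, DESeq2 adjusted p = 0.00428). The log2 fold change of its copy Gm28438 was -2.46 ± 1.12 in dnTGFB against WT and -4.66 ± 1.24 in WT secretin against WT, and neither passed (edgeR adjusted p = 0.26 and 0.14).

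Transcripts of the nuclear respiratory genes were high in the female libraries with heart transcripts. The 74 nuclear subunits summed to 14084, 10743 and 9715 CPM of the counts outside the mitochondrial rows in dnTGFB secretin, 58729, 65194 and 10928 in dnTGFB, 9330, 70304 and 66892 in WT secretin, and 10649, 12952 and 10535 in WT. The 4 highest sums belonged to the libraries with heart transcripts, whose mitochondrial shares of 17.4% to 23.2% lay within the range of the other female libraries. Leaving these 4 out left dnTGFB library 3 and WT secretin library 1 alone in their groups, so only effect sizes are given. The median log2 fold change of the rows was then -1.12 in dnTGFB against WT. It was -1.95 in WT secretin against WT and 0.51 in dnTGFB secretin against dnTGFB.

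Male and female responses were compared by an interaction term over all 24 libraries. For dnTGFB secretin against dnTGFB, 2 of 32 rows differed, both lower in males relative to females, where 5.32% of all genes tested were lower and 7.75% were called. mt-Tl2, a tRNA for leucine, had 16, 20 and 9 counts in male dnTGFB secretin, 86, 91 and 0 in male dnTGFB, 279, 95 and 116 in female dnTGFB secretin and 55, 85 and 127 in female dnTGFB. Female dnTGFB libraries 1 and 2 are among those with heart transcripts and Y-linked counts. In these mt-Tl2 stood at 0.764 and 0.848 CPM, against 3.59 CPM in female dnTGFB library 3. In female dnTGFB secretin mt-Tl2 had 10.97, 3.06 and 2.31 CPM. The difference in its log2 fold change, male minus female, was -5.25 ± 1.19 (edgeR adjusted p = 0.023). For mt-Tp that difference was -4.41 ± 1.31 (edgeR adjusted p = 0.0452), from 104.7, 90.4 and 98.8 CPM in male dnTGFB secretin, 1146, 1134 and 163 in male dnTGFB, 574.5, 179.7 and 110.2 in female dnTGFB secretin and 170.5, 190.1 and 245.1 in female dnTGFB. Neither passed with library totals alone. For dnTGFB against WT and WT secretin against WT the interaction called no row, where 6.86% and 0% of all genes were called, with 1 and 2 rows at an unadjusted p under 0.05.

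Within the mitochondrial counts the shares of the abundant mRNAs varied less than the total did. The share of mt-Nd3 varied more, from 0.519 to 26.8 per 100000 mitochondrial counts. mt-Co1 took 41.5% to 48.7% of the mitochondrial counts, mt-Cytb 14.7% to 18.7%, mt-Nd1 10.7% to 13.8%, mt-Nd2 7.14% to 12.6%, mt-Nd4 5.58% to 7.65%, mt-Nd5 4.37% to 7.44% and mt-Nd6 1.24% to 3.11%. mt-Cytb took 14.7% and 14.8% in male dnTGFB libraries 1 and 2 and 14.96% in male WT library 1, and 17.1% to 18.7% in the other 21. The ratio of mt-Nd2 to mt-Nd1 counts was 1.06, 1.04 and 1.04 in these 3 and at most 0.889 elsewhere, down to 0.561 to 0.582 in male dnTGFB secretin. mt-Co1 took 41.5% to 42.5% in the 4 female libraries with heart transcripts and in male dnTGFB library 3, and at least 44.9% in the others.

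**Figure D5:**
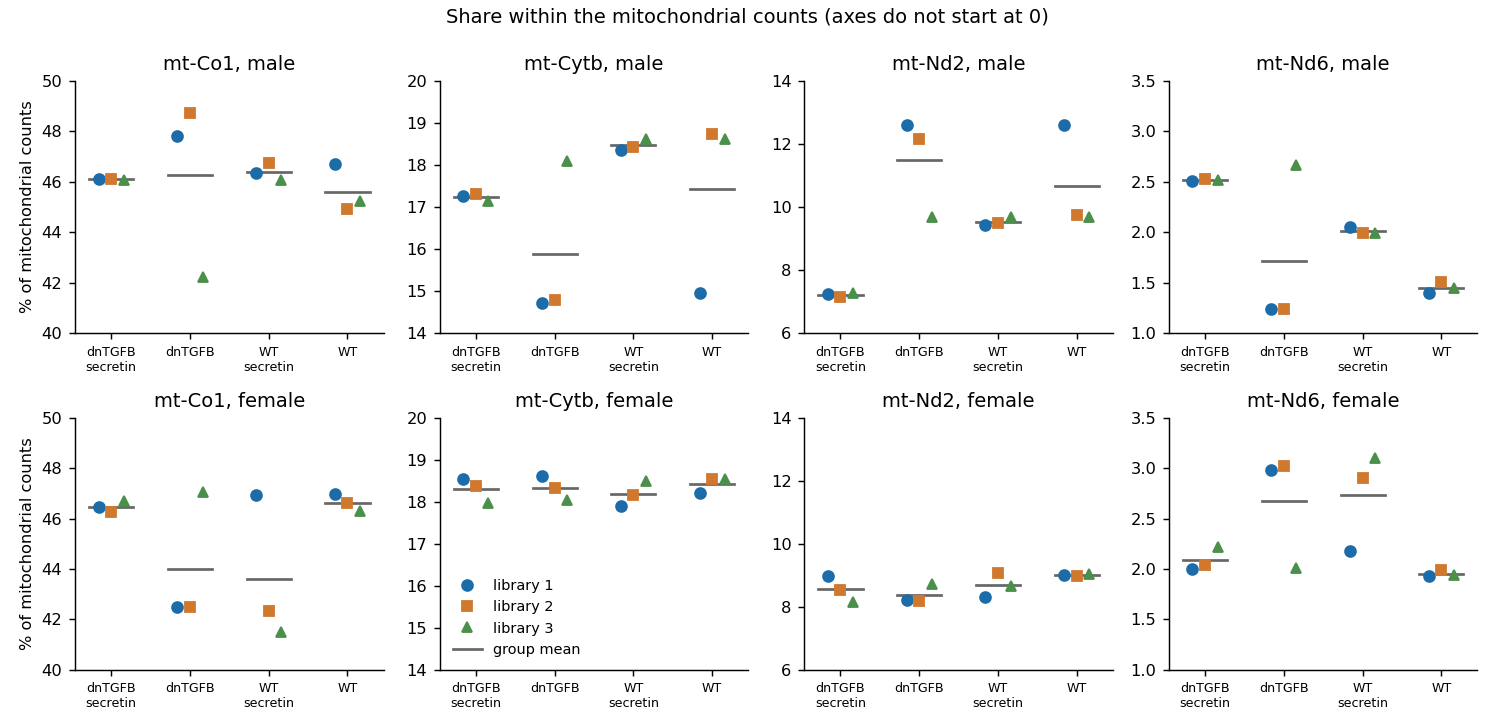
Share of mt-Co1, mt-Cytb, mt-Nd2 and mt-Nd6 within the mitochondrial counts of each library (%, axes do not start at 0); grey lines are group means. mt-Cytb lies at 14.7% to 14.96% in male dnTGFB libraries 1 and 2 and male WT library 1 and at 17.1% or more elsewhere, and mt-Co1 lies at 41.5% to 42.5% in male dnTGFB library 3 and the 4 female libraries with heart transcripts.

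By the distance between libraries in these shares, 10 of 12 male libraries but 3 of 12 female libraries had their nearest neighbour within their own group. The distance is the sum of the absolute differences over the 35 rows divided by 2, in percentage points, which is the part of the mitochondrial counts that would have to change rows. Female WT library 2 lay 0.19 from female dnTGFB secretin library 1, the smallest distance of any pair, and 0.52 from its nearest group member. Female WT secretin library 1 lay 0.43 from female dnTGFB secretin library 3 and 4.65 from its nearest group member. Male WT library 1 lay 1.17 from male dnTGFB library 1 and 5.67 from another WT library, and male dnTGFB library 3 lay 0.95 from the library labelled female WT secretin 2 and 8.62 from another of its group.

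The rows on the minus strand, mt-Nd6 and 8 tRNAs, had a higher share in every WT secretin library than in any WT library of the same sex. In males they took 2.42%, 2.32% and 2.35% of the mitochondrial counts in WT secretin, against 1.71%, 1.75% and 1.68% in WT (difference 0.648 points, exact two-sided permutation p = 0.1). In females they took 2.45%, 3.24% and 3.43% in WT secretin, of which the last 2 are heart-rich, against 2.24%, 2.33% and 2.23% in WT (difference 0.773 points, exact permutation p = 0.1). In dnTGFB secretin males the share was 2.83%, 2.84% and 2.81%, against 1.54%, 1.54% and 2.99% in dnTGFB males, so these overlapped through library 3 (exact permutation p = 0.4). Over the comparisons of the minus-strand share, the lowest Benjamini-Hochberg adjusted value of these permutation p-values was 0.3. Whether the counting used strand is not stated, so reads of precursors from the other strand cannot be told apart from those of mt-Nd6.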

How the data were processed

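The authors deposited 1 table of whole-number read counts per gene for each library; the aligner, the counting tool, its strand setting and its handling of reads with several matches are not stated. Coordinates in the tables are those of GRCm38, and symbols and transcript sequences came from GENCODE M21. Libraries took their group from the title. Each sex (12 libraries) was fitted on its own with edgeR 4.0.16 (R 4.3.3; TMM scaling, group-wise filter on low counts, robust quasi-likelihood F test, Benjamini-Hochberg adjusted p under 0.05 over all genes tested), and the 24 together for differences between the sexes. SEs were taken as the absolute log2 fold change over the square root of F. DESeq2 1.42.0 was an alternative. Shares were compared with exact permutation tests over libraries, and intervals of shares are exact binomial 95% intervals, covering counting error only.

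The members and gene lists were chosen with earlier results of these data known. All mRNAs were named, and tRNAs with at least 100 counts in the median library or lying between mRNAs; mt-Tt was added after its values were seen. Of each gene list, at most 2 called members in each direction with at least 10 CPM in the higher group were eligible to be named, and Tfam, Polrmt, Lrpprc and Ppargc1a always.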

Additional observations from a re-analysis of the deposited data

Results flagged for a closer look

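The tRNA rows mt-Tl2 and mt-Tp were singled out because the interaction term found their log2 fold change for dnTGFB secretin against dnTGFB to differ between the sexes. The difference, male minus female, was -5.25 ± 1.19 for mt-Tl2 and -4.41 ± 1.31 for mt-Tp (edgeR adjusted p = 0.023 and 0.0452). Both were lower in dnTGFB secretin than in dnTGFB in males, with log2 fold changes of -3.73 and -4.14, and in females neither was called, with 1.62 ± 0.74 and 0.31 ± 0.71. The count of 2 in 32 rows is near the share of all genes, of which 5.32% were called lower, and neither row was called with library totals. mt-Tl2 had 0 counts in male dnTGFB library 3, where 3 counts would be 2.10 CPM. Female dnTGFB libraries 1 and 2 carry heart transcripts and Y-linked counts, and mt-Tl2 had a lower CPM in them than in female dnTGFB library 3.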

How the results depend on the processing

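The calls depended on a few libraries; the cause was not tested. In dnTGFB secretin against dnTGFB males, 29 rows were also called with a replicate block, library totals, scaling on nuclear genes and DESeq2 size factors. The count was 26 with no filter, 21 with DESeq2, 13 of 28 with only the 6 libraries compared, and 7 to 30 with 1 library left out. All genes called lower numbered 1714 of 34198 with no filter, 3555 of 18777 with DESeq2 and 207 of 17461 with only the 6 libraries. No row changed direction. In each male comparison DESeq2 gave no adjusted p for 9 of the 31 rows, so it could not call these. In dnTGFB against WT males 0 to 28 rows were called with 1 library left out, 29 without WT library 1 and dnTGFB library 3 (also 29 with library totals) and 1 by DESeq2. In WT secretin against WT males these counts were 0 to 3 and 27 (27). In females DESeq2 called 1 row in dnTGFB against WT and 3 in WT secretin against WT, beside the counts over all genes given above. Leaving out 1 library gave 0 to 3 rows in WT secretin against WT. The 3 came without WT secretin library 1, where 3580 genes were higher and 1857 lower of 21210. Another fit left out the female pairs alike across groups: WT library 2, WT secretin library 1 and dnTGFB secretin libraries 1 and 3. The median log2 fold change of the rows went from 0.215 to 0.497 in dnTGFB against WT. It went from 0.218 to 1.04 in WT secretin against WT and from -0.702 to -1.61 in dnTGFB secretin against dnTGFB. Only 1 dnTGFB secretin library remained in that fit. With a replicate block the other 5 comparisons within a sex stayed at 0 rows, so no call within a sex changed, and the differences between the sexes were not fitted with it; same-numbered libraries deviated together (correlation over 0.1) in 2 of 18 pairs in males and 5 of 18 in females, and 5 and 2 of 12 libraries correlated best with their own number, so the numbers were not taken as pairs. The interaction called 0 rows for dnTGFB secretin against dnTGFB with library totals and 25 without the 6 libraries that stand apart, and 21 for dnTGFB against WT without them. The fit without these 6 libraries kept only 1 female dnTGFB and 1 female WT secretin library. It could not measure the spread within those groups, so no conclusion was drawn from its calls. Its median difference over the rows, male minus female, was -4.77 for dnTGFB secretin against dnTGFB, beside -0.11 over all genes. For dnTGFB against WT it was 4.43, beside -0.03. With 1 library left out, the share of counts ranged from 12.49 to 34.3 points for dnTGFB minus WT males and from -11.4 to -4.30 for WT secretin minus WT females. That for WT secretin minus WT males ranged from -6.84 to 9.67 points with 1 library left out and was 9.67 without the pair above. For dnTGFB secretin minus dnTGFB females it ranged from -7.55 to 3.93, was 1.21 per 100 other counts and 2.47 without the 4 heart-rich libraries. Left-out libraries moved the minus-strand share, dnTGFB minus WT males, from -0.175 to 0.553. Rows for rRNA were not analysed here, so the alternative with them was not run.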
